A study of Rattus norvegicus with 3 samples.

Results

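Mitochondrial gene regulators were followed in rat soleus, the slow postural muscle of the calf, when the hind limbs were unloaded. They are 10 genes: the coactivators Ppargc1a and Ppargc1b, the oestrogen-related receptors Esrra, Esrrb and Esrrg, the fatty acid receptors Ppara and Ppard, the transcription factor Nrf1, the mitochondrial DNA-binding factor Tfam and the mitochondrial deacetylase Sirt3. All probe sets annotated to one of these symbols alone were taken, which gave 16 of the 31099 probe sets on the array and 10 of its 14217 named genes. Sprague-Dawley rats aged 8 weeks were either fed normally without suspension (control, described by its label as a 7-day control) or suspended by the taped tail, the body at roughly 30 degrees, so that the hind limbs bore no load for 7 or 14 days (hind limb suspension, HS). The labels name no 14-day control, and both suspended groups were compared with the same control. Each of the 3 groups is 1 array of mixed RNA from 4 rats, so no value has a measure of the spread between rats, no test was made, and the number of arrays limits the precision.

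The PGC-1 coactivators, encoded by Ppargc1a and Ppargc1b, bind no DNA themselves; they dock on transcription factors and raise the output of genes for respiration and fatty acid oxidation. Among their partners are the oestrogen-related receptors (ERRs), which are orphan receptors and drive respiratory and citrate cycle genes, and the peroxisome proliferator-activated receptors (PPARs), which sense fatty acids. Nrf1, nuclear respiratory factor 1, drives nuclear genes of the respiratory chain and of the machinery that copies mitochondrial DNA, and Tfam, the end of that chain, packs and transcribes the mitochondrial genome. In skeletal muscle this network is most active in slow oxidative fibres such as those of the soleus.

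Values are log2 signals as deposited. A signal floor was set at a log2 signal of 6.01, the 40th percentile of all values, and the 11249 genes that reached it on 1 or more arrays are called measured. The arrays had 59.1% to 61.6% of probe sets at or above the floor, and the 3' probe set of beta-actin exceeded its 5' probe set by 1.16 to 1.25 on the log2 scale. All 10 slow-fibre markers were above the floor on the 3 arrays. Of 8 markers of liver, brain, pancreas and heart, 6 reached it on some array. The highest was the cardiac myosin gene Myh6, at log2 signals of 8.51, 9.33 and 8.90 in control, 7 days and 14 days. The insulin gene Ins1 read 7.36, 6.27 and 6.97, 2.12-fold lower at 7 days, and Ttr read 7.02, 6.18 and 4.95. Signals of this size therefore do not by themselves show expression. They include those of Esrrb, Nrf1 and Ppard on all arrays, and the dimmer Ppargc1a probe sets on the suspended arrays. The only error that could be measured was technical: the SD of a single probe set's log2 difference, taken from 3956 pairs of probe sets that share a gene. Error that both probe sets of a pair share, as from the pool, labelling or hybridization, cancels and is not in it. Differences in the transcripts that the pair detects are in it. Multiples of this SD therefore do not measure the full error between arrays. For the 7-day, 14-day and between-day differences this SD was 0.48, 0.48 and 0.39 at mean log2 signals under 8, then 0.36, 0.36 and 0.29 between 8 and 10, and 0.28, 0.31 and 0.21 at 10 and above. Each difference below is set beside the technical SD (TSD) of its signal class.

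Of the 10 regulators, 9 were measured; Ppara was under the floor on all 3 arrays. At 7 days of suspension Sirt3, Esrra and Esrrb were at least 1.5-fold below control and Nrf1 was as far above it. Those 3 of 9 lower genes stand beside 9.19% of all measured genes, and the 1 higher gene beside 9.08%. The median log2 difference of the 9 genes was -0.32, against 0 over all measured genes, with 8 of the 9 below control, where 49.0% of all measured genes were below it. At least 2-fold lower was 1 of 9, Sirt3, beside 2.40% of all measured genes, and at least 2-fold higher were 0 of 9, beside 2.23%.

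At 14 days, 5 of 9 regulators were at least 1.5-fold below control, namely Esrrb, Esrrg, Esrra, Ppargc1a and Sirt3, where 9.29% of all measured genes were. Nrf1 was again the 1 gene of 9 at least 1.5-fold above control, beside 11.7% of all measured genes. The median of the 9 genes was -0.64, against 0.01 over all measured genes, and 7 of 9 lay below control, where 47.2% of all measured genes did. At least 2-fold lower were 2 of 9, Esrrb and Esrrg, beside 2.44% of all measured genes, and at least 2-fold higher 0 of 9, beside 3.51%. A gene was represented here by its brightest probe set, which has a bearing on Nrf1 and Ppard below. Because the control array serves both days, the days are not independent views of the same difference.

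Between the suspended arrays none of the 9 regulators was at least 1.5-fold higher or lower at 14 than at 7 days, where 6.49% and 4.30% of all measured genes were, nor 2-fold, where 1.44% and 0.818% were. The median difference was -0.34, and 6 of 9 genes were lower on the 14-day array, where 46.3% of all measured genes were. Sirt3, Ppargc1b and Nrf1 were the 3 that were higher at 14 than at 7 days. In whole muscle, fewer cells of a type and less RNA per cell cannot be told apart.

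**Figure D1:**
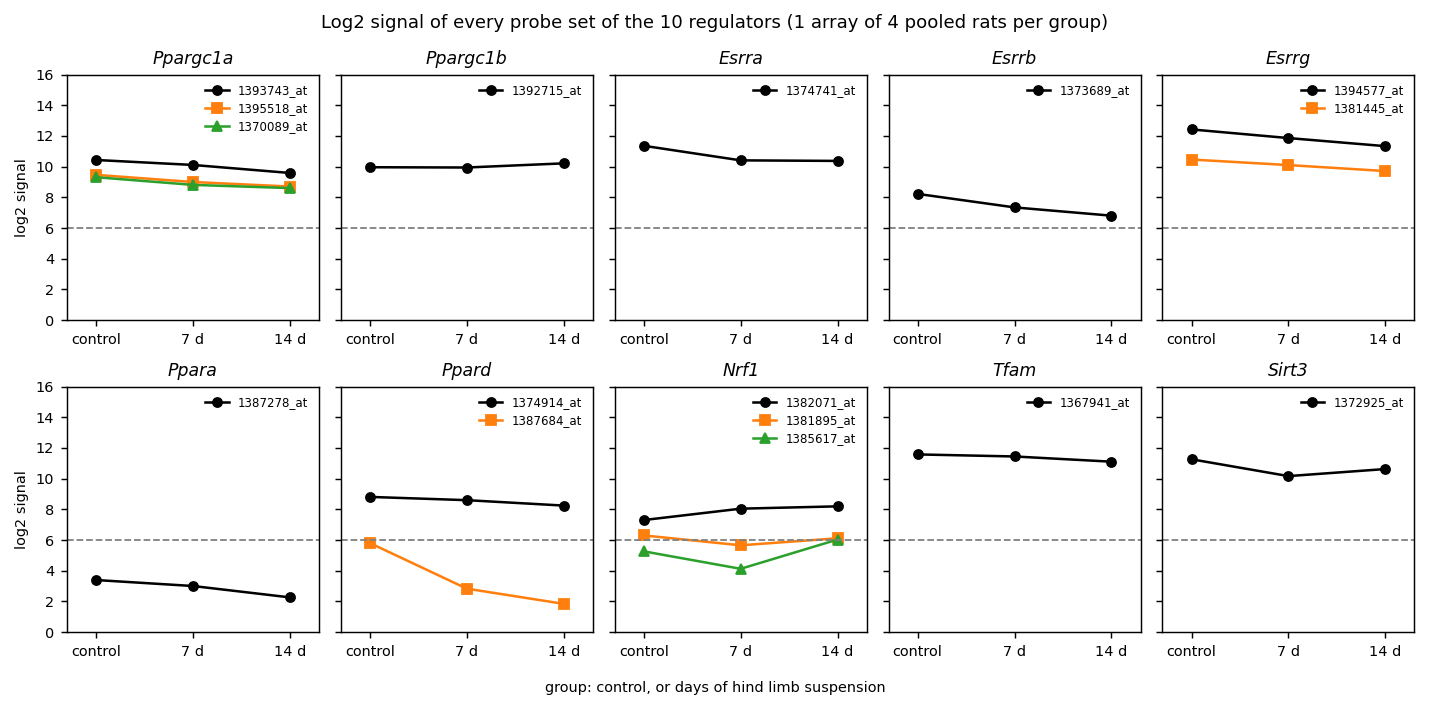
Log2 signal (vertical axis) of all 16 probe sets of the 10 regulators on the control, 7-day and 14-day arrays (horizontal axis), 1 panel per gene and 1 line per probe set, the black circles being the brightest; each point is 1 array and the dashed line is the floor at 6.01. The lines of Ppargc1a, Esrrb and Esrrg run downward from control to 14 days, Sirt3 is lowest at 7 days, and the lines of Ppara and the dimmer Ppard probe set stay under the floor.

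Ppargc1a, the inducible coactivator PGC-1 alpha, was lower on both suspended arrays in all 3 of its probe sets. The brightest (1393743_at) had log2 signals of 10.43 in control, 10.11 at 7 days and 9.59 at 14 days, lower on each array in that order. The others read 9.46, 9.0 and 8.70 (1395518_at) and 9.31, 8.81 and 8.60 (1370089_at), so the 3 probe sets put the arrays in the same order. At 7 days the log2 differences from control were -0.32, -0.47 and -0.50, a mean of -0.43 ± 0.09 (SD over 3 probe sets of the same pools, which are not replicates). They were -0.85, -0.76 and -0.71 at 14 days, with a mean of -0.77 ± 0.07 over the same 3 probe sets. The brightest probe set was 1.25-fold lower at 7 days, 1.16 times its TSD, and 1.80-fold lower at 14 days, 2.77 times its TSD. At 14 days 4.12% of all measured genes lay lower than it, against 20.8% at 7 days. The difference between 7 and 14 days was -0.52 in the brightest probe set but -0.29 and -0.21 in the others, which is 1.0 and 0.71 times their TSD in size, so the probe sets differ on how far the second week went.

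Ppargc1b, the related coactivator PGC-1 beta, had a different course. Its single probe set had log2 signals of 9.96 in control, 9.94 at 7 days and 10.21 at 14 days. Its differences from control, -0.02 and 0.25, were both smaller than the TSD of 0.28 and 0.31, and the sign of the first turned with each array centred on its median. The 14-day array was the highest of the 3.

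Esrra, which encodes ERR alpha, the best known partner of PGC-1 alpha on respiratory genes, was already lower after the first week. Its log2 signals were 11.36 in control, 10.41 at 7 days and 10.37 at 14 days. Both suspended arrays lay close together and well apart from control, with log2 differences of -0.95 (1.93-fold lower, 3.40 times the TSD) and -0.99 (1.98-fold lower, 3.22 times the TSD). The suspended arrays differed by -0.04, less than the TSD of 0.21. Only 2.92% of all measured genes lay lower than Esrra at 7 days and 2.52% at 14 days. A single probe set represents Esrra, so its course has no second reading.

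Esrrg, which encodes ERR gamma, a receptor abundant in oxidative fibres, stood lower on each later array. Its brighter probe set (1394577_at) had log2 signals of 12.42 in control, 11.86 at 7 days and 11.34 at 14 days. Its dimmer one (1381445_at) read 10.46, 10.10 and 9.71, the same order on a smaller scale. The brighter was 1.48-fold lower at 7 days, just short of the 1.5-fold mark, and 2.13-fold lower at 14 days, or 2.01 and 3.56 times the TSD. For the dimmer probe set the log2 differences were -0.36 and -0.75, or 1.29 and 2.46 times the TSD. From 7 to 14 days the pair differed by -0.53 and -0.39, 2.49 and 1.85 times the TSD.

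Esrrb, which encodes ERR beta, was dim on this array, and its differences carry a wide error. Log2 signals were 8.22 in control, 7.34 at 7 days and 6.81 at 14 days, so the 14-day value stood near the floor. It was 1.84-fold lower at 7 days and 2.67-fold lower at 14 days, 1.85 and 2.95 times the TSD of its class. At 14 days 0.676% of all measured genes lay lower. A single probe set represents the gene.

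The 3 ERR genes thus all lay below control at both times, but not in the same way. Esrra showed its whole difference by 7 days, whereas Esrrg and Esrrb had further log2 differences of -0.53 and -0.54 between the suspended arrays. For Esrrb that step was 1.37 times its TSD.

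**Figure D2:**
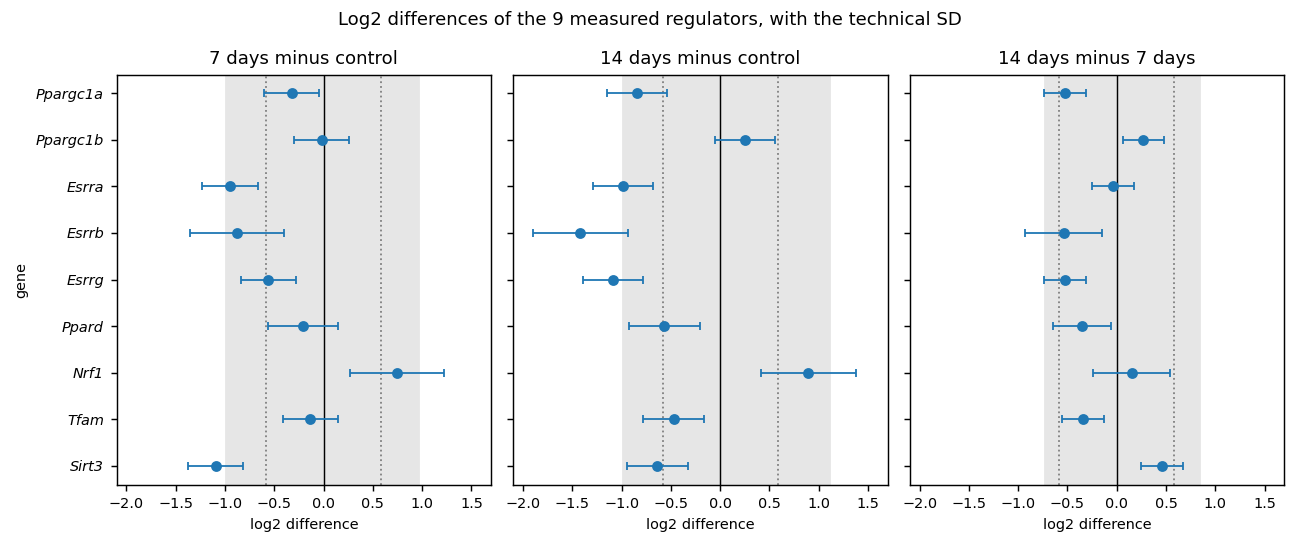
Log2 difference (horizontal axis) of the brightest probe set of each of the 9 measured regulators (vertical axis) for 7 days minus control, 14 days minus control and 14 minus 7 days; bars are plus and minus 1 technical SD, not a spread between rats, grey bands hold 95% of all measured genes and dotted lines mark 1.5-fold. Sirt3 lies left of the band at 7 days, Esrrb and Esrrg lie left of it at 14 days, and Nrf1 is the only gene right of the dotted line.

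Of the fatty acid receptors only Ppard could be measured. Ppara, the receptor that governs fatty acid oxidation in liver, heart and muscle, had log2 signals of 3.40, 3.01 and 2.27 in control, 7 days and 14 days in its single probe set. All lie under the floor, so no difference is given. Ppard, the main PPAR of skeletal muscle, had log2 signals of 8.81, 8.60 and 8.24 in its brighter probe set (1374914_at). The differences from control were -0.21 at 7 days, under the TSD of 0.36, and -0.57 at 14 days, a 1.48-fold lower value at 1.56 times the TSD. Its dimmer probe set (1387684_at) was under the floor on all arrays, at 5.80, 2.83 and 1.84.

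Nrf1 was the only one of the 9 measured regulators whose leading probe set read higher than control on both suspended arrays, and its probe sets disagree. The brightest (1382071_at) had log2 signals of 7.30 in control, 8.04 at 7 days and 8.20 at 14 days. It was 1.67-fold and 1.86-fold above control, or 1.56 and 1.85 times the TSD. The others lay near or under the floor: 1381895_at read 6.30, 5.66 and 6.11, and 1385617_at read 5.26, 4.13 and 6.03, both lowest at 7 days. Of these, 1381895_at was above the floor on the control and 14-day arrays, where it differed by -0.19. With the mean of all 3 probe sets in place of the brightest, Nrf1 stood at 0.49 at 14 days; at 7 days that mean fell under the floor, so its difference of -0.28 is a bound, at least that far below control. The direction at 7 days therefore rests on the probe set chosen.

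Tfam, the protein that coats and transcribes mitochondrial DNA, was bright and differed little. Log2 signals were 11.58 in control, 11.44 at 7 days and 11.10 at 14 days. Its 7-day difference of -0.13 was under the TSD of 0.28. At 14 days it was 1.39-fold lower, 1.55 times the TSD, and 13.2% of all measured genes lay lower.

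Sirt3, the deacetylase that acts on enzymes inside mitochondria, had the largest difference of the 9 regulators at 7 days and stood higher again at 14 days. Its log2 signals were 11.26 in control, 10.17 at 7 days and 10.63 at 14 days, so the 14-day array lay between the other arrays. It was 2.14-fold lower at 7 days, 3.93 times the TSD, with 1.77% of all measured genes lower. At 14 days it was 1.55-fold lower, 2.08 times the TSD. The suspended arrays differed by 0.46, or 2.18 times the TSD. A single probe set represents Sirt3, so this course has no second reading.

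Of the regulators' probe sets, 12 reached the floor on each of the 3 arrays, and they belong to 9 genes. Of these 12, 11 were below control at 7 days and 10 at 14 days. Their median log2 differences were -0.41 and -0.73. Counted by gene, 49.0% and 47.2% of all measured genes were below control. Several of the 12 probe sets share a gene and all share the pools, so these are not independent counts.

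The promoters of Ppargc1a, Esrra and Tfam are shown because these are members of 3 levels of the network, coactivator, receptor and mitochondrial factor, that read lower at 14 days, and because each window holds 1 of the searched motifs of factors that drive mitochondrial genes or Ppargc1a. RefSeq promoter windows of the GRCr8 build were found for 9 of the 10 genes, with 12 start sites in all, and the 250 bases before each start were searched on both strands. The motifs were the cyclic AMP response element TGACGTCA, the Nrf1 core GCATGCGC, the ETS site of the GABP factors CCGGAAG, the ERR site AAGGTCA, the PPAR-type direct repeat DR1 (the half-site AGGNCA in 2 copies with 1 base between them) and the GC box GGGCGG. Capitals mark a match to any of these but the GC box.
Ppargc1a, chr14:63634058-63634307, plus strand: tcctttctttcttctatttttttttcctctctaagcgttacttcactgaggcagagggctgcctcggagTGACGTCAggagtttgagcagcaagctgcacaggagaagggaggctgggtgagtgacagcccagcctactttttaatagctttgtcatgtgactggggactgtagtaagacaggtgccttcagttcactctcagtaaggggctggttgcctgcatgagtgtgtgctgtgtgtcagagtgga
Esrra, chr1:213543306-213543555, minus strand: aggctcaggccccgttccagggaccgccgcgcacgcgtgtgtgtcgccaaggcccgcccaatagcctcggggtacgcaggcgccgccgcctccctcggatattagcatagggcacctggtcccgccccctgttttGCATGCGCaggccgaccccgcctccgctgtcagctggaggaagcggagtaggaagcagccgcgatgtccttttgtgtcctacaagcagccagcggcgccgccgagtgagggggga
Tfam, chr20:17355123-17355372, plus strand: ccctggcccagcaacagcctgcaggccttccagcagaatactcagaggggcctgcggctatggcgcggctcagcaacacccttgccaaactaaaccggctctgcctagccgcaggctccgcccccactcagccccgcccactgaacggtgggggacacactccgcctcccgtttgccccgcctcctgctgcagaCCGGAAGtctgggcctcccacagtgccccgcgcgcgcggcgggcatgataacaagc

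In Ppargc1a the response element begins 181 bases before the start; such an element binds CREB, and 1.59% of 33469 RefSeq promoter windows of the same length hold it. The Nrf1 core of Esrra begins 115 bases before the start and is found in 2.20% of windows. The ETS site of Tfam begins 56 bases before the start and is found in 7.27% of windows. The ERR site, in 3.99% of windows, and the direct repeat, in 0.368%, matched no window of the regulators searched. The windows of Ppargc1b, Esrrb, Esrrg, Nrf1 and Sirt3 held none of the motifs but the GC box. Ppara, which was not measured, held the Nrf1 core, beginning 100 bases before the start. The GC box, in 30.5% of windows, matched in Esrra and Tfam and not in Ppargc1a. It also matched in Ppargc1b, Ppara, Nrf1, Sirt3 and some Esrrg windows, and not in Esrrb. A match is a stretch of letters, and no binding was measured here.

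The genes around the regulators were read from 10 further lists. Their counts are to be read beside all measured genes, of which 9.08% were at least 1.5-fold higher and 9.19% as much lower at 7 days, and 11.7% and 9.29% at 14 days, with medians of 0 and 0.01. Coactivators and corepressors of nuclear receptors lay mostly above control at 7 days, 13 of 16, with a median of 0.22. Below control lay 3 of 16, where 49.0% of all measured genes did. At that time 3 of 16 were at least 1.5-fold higher and 2 as much lower, beside 9.08% and 9.19% of all measured genes. At 14 days the counts were 2 and 2 of 16, beside 11.7% and 9.29%, with a median of 0.10, so apart from the 3 higher genes at 7 days the counts lie near those shares. Nrip1, a corepressor that opposes PGC-1 and ERR on metabolic genes, had log2 signals of 8.89, 9.87 and 9.57 and was 1.97-fold above control at 7 days and 1.60-fold at 14 days. Kat2a, the acetyltransferase GCN5, which dampens PGC-1 alpha, was 1.61-fold and 2.17-fold higher (7.54, 8.22 and 8.66). Perm1, a muscle factor induced by PGC-1 and ERR, was 2.11-fold and 1.53-fold lower (13.33, 12.25 and 12.72). These 3 are the list's genes of largest difference.

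Partner transcription factors showed no common direction, with medians of 0.05 and 0.02 over 22 measured genes, the second of which was -0.06 under quantile normalization. At least 1.5-fold higher were 2 of 22 at each time, beside 9.08% and 11.7% of all measured genes, and as much lower 1 and 2 of 22, beside 9.19% and 9.29%, all near or under those shares. Tfeb, a factor of lysosome and lipid genes, was 1.51-fold and 1.75-fold higher, and the orphan receptor Nr2f2 was 1.18-fold and 1.76-fold higher. The clock repressor Nr1d1 was 1.18-fold and 1.60-fold lower. Among 19 kinases and phosphatases that act upstream of Ppargc1a, 2 were at least 1.5-fold higher at 7 days, near the 9.08% of all measured genes, and 7 at 14 days, beside 11.7%. As much lower were 0 and 1 of 19, beside 9.19% and 9.29%. The AMP-activated kinase subunit Prkag3 had log2 signals of 9.19, 10.95 and 10.94, 3.38-fold and 3.36-fold above control. Ppp3r1, the regulatory subunit of calcineurin, was 1.75-fold higher at 14 days in its brightest probe set, while a further one, under the floor on the 7-day array, differed by -0.02. Camkk2, a calcium-responsive kinase upstream of AMP-activated kinase, was 1.89-fold lower at 14 days, although its dim second probe set was under the floor in control and read 6.83 at 14 days.

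The machinery of mitochondrial DNA, the process that Tfam serves, had medians of -0.13 and -0.15 over 23 genes. Below control were 15 and 18 of 23, where 49.0% and 47.2% of all measured genes were. At least 1.5-fold lower were 1 of 23 at 7 days and 3 of 23 at 14 days, near the 9.19% and 9.29% of all measured genes. As much higher were 2 and 1 of 23, beside 9.08% and 11.7%. Tefm, the elongation factor of mitochondrial transcription, was 1.30-fold and then 1.86-fold lower (log2 signals 10.50, 10.12 and 9.60). Twnk, the mitochondrial helicase, was 1.22-fold and 1.77-fold lower, and a second probe set gave -0.26 and -0.46. Top1mt, the mitochondrial topoisomerase, was 1.74-fold and 2.03-fold higher from a low control signal of 6.53.

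Known targets of PPARs had the lowest median of the 10 lists at 14 days. At 7 days 20 of 25 measured genes lay below control, where 49.0% of all measured genes did, with a median of -0.24. At least 1.5-fold lower were 3 of 25, beside 9.19% of all measured genes. As much higher was 1 of 25, beside 9.08%, namely Ucp3, 1.82-fold in its brightest probe set. At 14 days 23 of 25 lay below control, where 47.2% of all measured genes did, with a median of -0.51. At least 1.5-fold lower were 9 of 25, where 9.29% of all measured genes were. As much higher were 0 of 25, beside 11.7%. Plin5, a lipid droplet protein of oxidative tissue, had log2 signals of 10.59, 9.76 and 8.82, 1.77-fold and 3.40-fold lower. The carnitine carrier Slc25a20 was 1.63-fold and 1.85-fold lower. Pdk4, the kinase that shuts pyruvate dehydrogenase, read 14.83, 15.02 and 13.77, so it was 1.14-fold above control at 7 days and 2.09-fold below it at 14 days, and a dimmer probe set gave 0.42 and -1.91. The brighter signals lie near the highest value of the 7-day array, 16.03, where a difference can be compressed.

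Known targets of ERRs and PGC-1, most of them genes of respiration and the citrate cycle, also lay mostly below control. Of 29 genes 25 lay below control at 7 days and 27 at 14 days, where 49.0% and 47.2% of all measured genes did. The medians of the 29 were -0.23 and -0.27. At least 1.5-fold lower were 2 of 29 at 7 days, Vegfa and the citrate cycle gene Ogdh, and 1 of 29 at 14 days, Fndc5. These counts lie under the 9.19% and 9.29% of all measured genes. As much higher were 0 and 1 of 29, beside 9.08% and 11.7%. Many of the 29 are bright, such as Slc25a4 at 15.39 and Ndufb5 at 15.08 in control, where a difference can be compressed. Whether this bears on the counts was not tested. Vegfa, an angiogenic factor driven by PGC-1 alpha and ERR alpha, was 1.75-fold lower at 7 days and 1.25-fold at 14 days (11.78, 10.97 and 11.46), with a second probe set at -0.98 and -0.77. Fndc5, the precursor of irisin, was 1.12-fold and 1.62-fold lower. Idh3a, a subunit of the citrate cycle enzyme isocitrate dehydrogenase, stood on the other side at 1.49-fold and 1.90-fold above control.

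Of 18 Nrf1 targets, 13 lay below control at 7 days and 17 at 14 days, where 49.0% and 47.2% of all measured genes did. The medians of the 18 were -0.07 and -0.21, while the leading Nrf1 probe set read higher. At least 1.5-fold lower were 1 and 0 of 18, under or near the 9.19% and 9.29% of all measured genes. As much higher was 1 of 18 at each time, beside 9.08% and 11.7%. Here too some genes are bright, such as Cox6c at 15.29 in control, where a difference can be compressed. The complex I subunit Ndufs8 was 1.93-fold and 1.46-fold lower (13.35, 12.40 and 12.81), and the complex II subunit Sdhb 1.28-fold and 1.37-fold. Fmr1, an RNA-binding protein outside the respiratory chain, was 1.66-fold and 1.54-fold higher.

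The list of Sirt3 substrates had medians of -0.23 and -0.33 over 17 genes. Below control lay 14 of 17 at each time, where 49.0% and 47.2% of all measured genes did. At least 1.5-fold higher were 1 and 2 of 17, beside 9.08% and 11.7%. Acss1, the mitochondrial acetyl-CoA synthetase that Sirt3 activates, was 2.27-fold and 2.31-fold lower, with log2 signals of 11.06, 9.88 and 9.86. Pdp1, the phosphatase that switches pyruvate dehydrogenase on, was 1.74-fold and 1.64-fold higher. The list also held Lcat, a secreted enzyme of plasma lipids that is no known Sirt3 substrate, at 1.87-fold and 1.54-fold lower; without it 1 in place of 2 genes was at least 1.5-fold lower at each time, where 9.19% and 9.29% of all measured genes were. The 5 other sirtuins measured were all below control at 7 days, where 49.0% of all measured genes were, and none of the 5 was 1.5-fold away. At 14 days Sirt6, a nuclear sirtuin, was 1.68-fold lower and Sirt7 1.33-fold, while Sirt2 read 11.61, 11.23 and 11.62.

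Genes of mitochondrial fusion and fission had medians of -0.14 and -0.22 over 13 genes, of which 1 was at least 1.5-fold lower at each time and 2 as much higher. These counts lie near the shares of all measured genes, 9.19% and 9.29% lower and 9.08% and 11.7% higher. Gdap1, a fission factor known from nerve, was under the floor in control and read 7.53 at 7 days and 7.29 at 14 days, at least 2.87-fold and 2.43-fold higher. The fission adaptor Mief1 was 1.59-fold and 1.93-fold lower. Mfn2, a fusion protein and a known target of ERR alpha, differed by -0.42 and -0.58, at log2 signals of 12.89, 12.48 and 12.31. Oma1, a protease that cuts the fusion protein Opa1, was 1.60-fold and 1.67-fold higher.

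**Figure D3:**
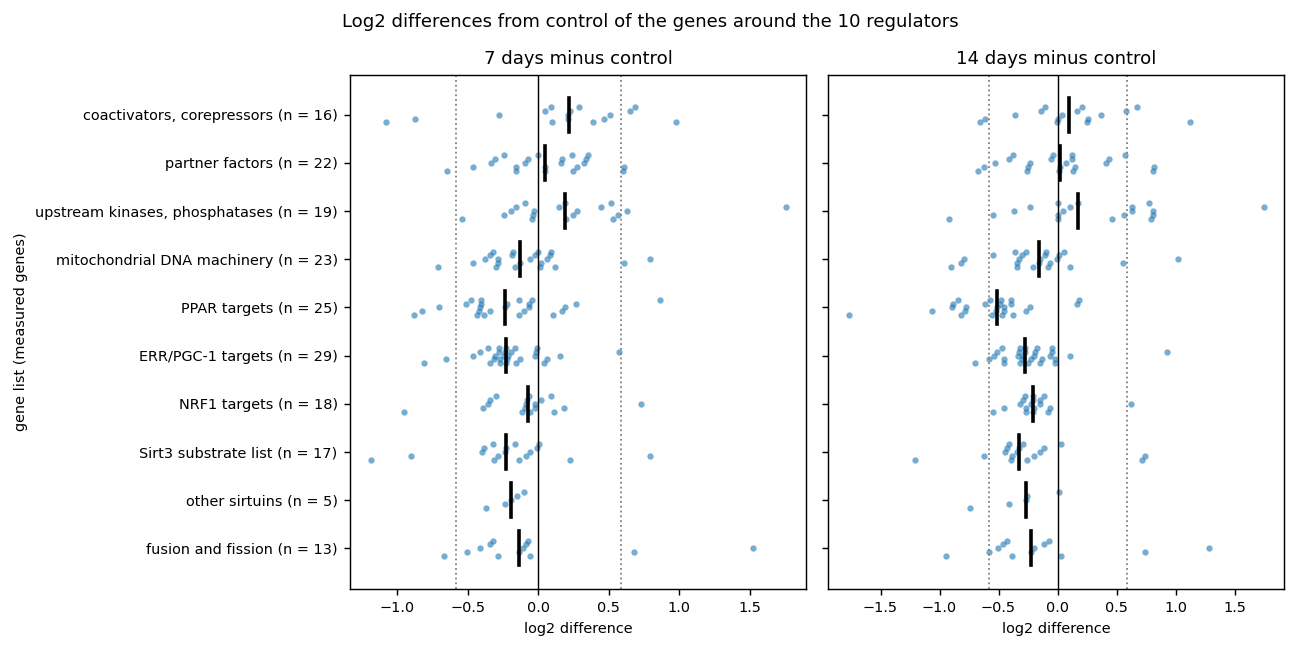
Log2 differences from control (horizontal axes) at 7 days and at 14 days of the measured genes of 10 lists around the regulators (vertical axis, n measured genes each); each point is 1 gene, bars are list medians, dotted lines mark 1.5-fold, and a value against the floor is a bound. The PPAR targets at 14 days have the lowest median, -0.51, while coactivators and corepressors lie mostly right of 0 at 7 days.

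Markers of fibre type and of other cells also differed between these samples, and their part in these values was not tested. The unlogged signals of 10 slow-fibre markers summed to 465390 in control, 438614 at 7 days and 354246 at 14 days, with 1 and then 3 of 10 at least 1.5-fold lower, beside 9.19% and 9.29% of all measured genes. Those of 11 fast-fibre markers summed to 209849, 320299 and 390960, with 5 of 11 at least 1.5-fold higher at each time, beside 9.08% and 11.7% of all measured genes. Some markers of both types, such as Myh7 at 15.81 and Myh2 at 15.35 in control, lie where a difference can be compressed. All 10 macrophage markers lay above control at both times, where 49.0% and 47.2% of all measured genes lay below it. At least 1.5-fold higher were 5 of 10 at each time, beside the same 9.08% and 11.7%. The macrophage markers had sums of 5802, 8882 and 8604. The sums of 8 fibroblast markers were 82515, 98959 and 115935, with 2 and 3 of 8 at least 1.5-fold higher, beside 9.08% and 11.7% of all measured genes. As much lower were 1 of 8 at 7 days and 0 at 14 days, beside 9.19% and 9.29%. Those of 9 adipocyte markers were 24716, 36615 and 26955. Of the 8 adipocyte markers measured, 4 at 7 days and 3 at 14 days were at least 1.5-fold higher, again beside 9.08% and 11.7%, among them Scd (3.97-fold and 3.34-fold) and Plin1 (2.19-fold and 1.91-fold). The 8 endothelial markers summed to 7925, 7229 and 8549, with none 1.5-fold away from control. The sums of 7 smooth muscle markers were 27699, 25478 and 25618. At least 1.5-fold lower were 1 of 7 at 7 days and 0 at 14 days, beside 9.19% and 9.29%. As much higher were 0 of 7 at each time, beside 9.08% and 11.7%. Most of the sum comes from the brightest, Des (14.29, 14.22 and 14.11), which is not particular to smooth muscle. Of the markers, 1 was at 0 on an array, the brown fat gene Elovl3 in control. Ucp1, the defining gene of brown fat, in which PGC-1 and ERRs are also active, was under the floor on all arrays (3.59, 3.19 and 5.58). Of the 6 brown fat markers, 3 reached the floor, while Ucp1, Dio2 and Elovl3 were under it on all arrays. Among the 3 that reached it, Cidea read 10.74, 9.67 and 8.72, 2.10-fold and 4.06-fold below control. It was the 1 of these 3 at least 1.5-fold lower at each time, beside 9.19% and 9.29% of all measured genes. Cox8b differed by -0.05 and -0.17, and Cox7a1 by -0.27 and -0.05. Neither gene is particular to brown fat, and Cox7a1 is also among the ERR and PGC-1 targets above.

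The genes whose pattern over the 3 arrays was most like that of Ppargc1a, Esrrg and Sirt3 were sought among 9713 other named genes at or above the floor on all arrays, as the smallest distance between their pairs of log2 differences from control. For Ppargc1a these were Gnl3, Dynlt1, Agk and Colq, at distances of 0.02 to 0.03, and for Esrrg they were Macroh2a2, Baz2a, Tns1 and Snrpf, at 0.01 to 0.04. Nearest to Sirt3 was Perm1, the muscle factor described among the coactivators, at 0.03, followed by Pdzd11, Rusc2 and Endod1. Perm1 differed from control by -1.08 and -0.61, against -1.10 and -0.64 for Sirt3. With 3 arrays many genes share a pattern: 29, 13 and 11 genes lay within 0.1 of Ppargc1a, Esrrg and Sirt3.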

How the data were processed

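Total RNA was extracted with Trizol, purified on RNeasy columns and labelled as biotin cRNA for Affymetrix arrays, per the labels' protocols. The deposited table holds log2 signals of probe sets, scaled by the authors to nearly equal trimmed means (500.2 unlogged on each array, 2% trimmed at each end, as read from the values); the program that made them is not given in the sources used here. They were used as deposited. The source entry of the 14-day sample says 7 days, but its title and time entry say 14 days, and it was used as 14 days. Of the probe sets, 20826 have 1 gene in the platform annotation, and a gene was represented by its brightest one; all probe sets of the 10 regulators are reported. Signals under the floor were set to it, and a difference against the floor is a bound. Counts at 1.5-fold stand beside those of all measured genes. The fixed rule for further names took the 3 genes of largest difference from control in each list among differences with both arrays at or above the floor, and the 4 of nearest pattern. Other genes, such as Gdap1, were picked after seeing values. The members and the lists were chosen with earlier results of these data known. The calculation was tested on simulated data. Median centring, quantile normalization, other floors, 2-fold and the mean over probe sets were tried. Python 3.11.15, numpy 2.4.6 and pandas 2.3.3 were used.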

Additional observations from a re-analysis of the deposited data

Results flagged for a closer look

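The 3 results here lay on opposite sides of control on the suspended arrays; with 1 array per group that contrast between the days was not tested, and both days share the control. Ppargc1b differed by -0.018 at 7 days and 0.25 at 14 days, both smaller than the technical SD. Pdk4 differed by 0.19 and -1.06, and its dimmer probe set had the same signs. Sirt2, a mainly cytosolic deacetylase, differed by -0.37 and 0.012. Its 14-day value is far smaller than the technical SD of 0.31 and lies at the median of all measured genes, 0.012.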

How the results depend on the processing

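Each of the 27 differences of the 9 measured regulators was recomputed under 6 alternatives, and 157 of 162 values stayed within 1 technical SD of the reported one. The exceptions all came from the mean over a gene's probe sets, which brings in probe sets at or under the floor. The mean of Nrf1 was then under the floor at 7 days, so that its -0.28 at 7 days and 0.77 between the suspended arrays are bounds, differences of at least that size. The mean of Ppard was under the floor on both suspended arrays, so -1.30 at 7 and at 14 days is likewise a bound, and the 0 between them is the floor against itself and no measured difference. Under the same mean the median of the regulators between the suspended arrays, with Ppard counted at that 0, was -0.036. With that mean 1 regulator was at least 1.5-fold higher between them, and 0 were at least 1.5-fold higher than control at either day. Nrf1 and Ppargc1b still lay above control at 14 days, by 0.49 and 0.25. At 2-fold, 1 regulator was lower at 7 days and 2 at 14 days, and 0 were higher at either. Between the suspended arrays, 2 were at least 1.5-fold lower with each array centred on its median and 1 with no floor. The latter is Ppara, at -0.74 between signals under the floor, and not 1 of the 9 measured regulators. All 183 recomputed medians of the 10 lists stayed within 1 technical SD. Of 366 recomputed counts in these lists, 45 moved by over 1.5 times. No paired analysis was possible because each group has 1 array, and for the same reason no array could be left out. Signals near the floor, as for Esrrb at 14 days and Nrf1, limit what can be read, and Ppara could not be measured.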
